A study of Mus musculus with 12 samples.

Results

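RNA of c-Kit(+) cells from mouse hearts 12 days after myocardial infarction (MI) and treatment with vehicle was compared with RNA of such cells taken 1 day before MI. The comparison holds 6 of the 12 libraries of the study, 3 labelled 12 days post-MI vehicle and 3 labelled prior to MI, and its members are all libraries of these groups. All mice were of the strain C57BL/6 c-KitCreERT2/mTeG, and at 8 weeks of age had been injected daily with 0.5 mg of tamoxifen over 14 days, which switched on the Cre and marked c-Kit(+) cells with eGFP in both groups. The pre-MI mice had no infarct at the time of sampling. The day 12 vehicle mice had MI and were given vehicle 2 days later; they did not receive Sfrp2, which other mice of the study received on that day. The column names of the deposited values give day 14 for the vehicle libraries, and the labels give day 12, which is used here. An inducible Cre under the c-Kit gene marks cells that expressed c-Kit during the tamoxifen weeks, and their descendants keep the mark whether or not they still express it. Whether each replicate is its own animal is not stated in the labels, so the p-values reflect library-to-library spread, part of which may be technical.

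An infarct kills heart muscle, and the wound is then filled by monocytes and macrophages, which clear debris, and later by scar matrix. Macrophages recognise opsonised debris through complement receptors, are sustained by colony-stimulating factors, and take up oxidised lipid through scavenger receptors. c-Kit is a receptor tyrosine kinase of mast cells, blood progenitors and some endothelial and cardiac cells, so a c-Kit lineage fraction of the heart can hold several cell types.

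In the 12-day vehicle libraries, 9 of 11 tested macrophage genes and 4 of 6 complement genes were above all pre-MI libraries in every vehicle library. So were 2 of 4 chemokine and cytokine genes, against 13.6% of all tested genes. Most tested genes of the sarcomere, the respiratory chain and endothelium were below all pre-MI libraries, against 20.9% of all tested genes. Genes tested only because they were high after MI had to differ, so the counts of higher genes are a description. Itgam, Csf2ra and Pid1 were at 3.59 normalised counts or less before MI and at 14.0 to 156 after it, and Myh6 was at 227 or more before MI and at 38.4 or less after it. With all 6 libraries no gene passed the test, and the vehicle libraries differed more among themselves than the pre-MI libraries did. Without vehicle replicate 3, 94 genes rose and 64 fell. The third vehicle library and the background of the vehicle libraries are described first, since results are given with and without that library.

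Vehicle replicate 3 stood apart. Recovered reads per library were 1075443, 2349774 and 200641 in vehicle replicates 1 to 3 and 3462396 to 3570993 before MI. Both mitochondrial rRNA genes together took 56.6%, 75.8% and 2.01% of the reads in vehicle replicates 1 to 3 and 82.6% to 86.7% before MI. A group of 7 predicted genes is called satellite-like here. They were chosen by a share of over 0.1% of the reads in both vehicle replicates 1 and 3. They took 15.7%, 1.13% and 39.3% in the vehicle libraries and at most 0.232% before MI. The choice used the vehicle values, so part of this difference was fixed by it. The depth behind the values below is that of the other genes, which held 97041 to 339986 reads in each library. Olfactory, vomeronasal and taste receptor genes, 102 genes that heart cells are not known to use, gave 373, 72 and 677 reads in the vehicle libraries and 6 to 10 before MI. Of all 15223 listed genes, 0.828%, 15.2% and 10.5% were at 0 in the vehicle libraries and 33.9% to 42.1% before MI. The vehicle libraries therefore hold low reads over many more genes, and a gene is called above background below where its value divided by its exon length was over that of 95% of the sensory receptor genes in the same library; that level was 2.39, 0.529 and 17.4 normalised counts per exon kb in vehicle replicates 1 to 3. The part of this background in low rises was not tested.

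**Figure D1:**
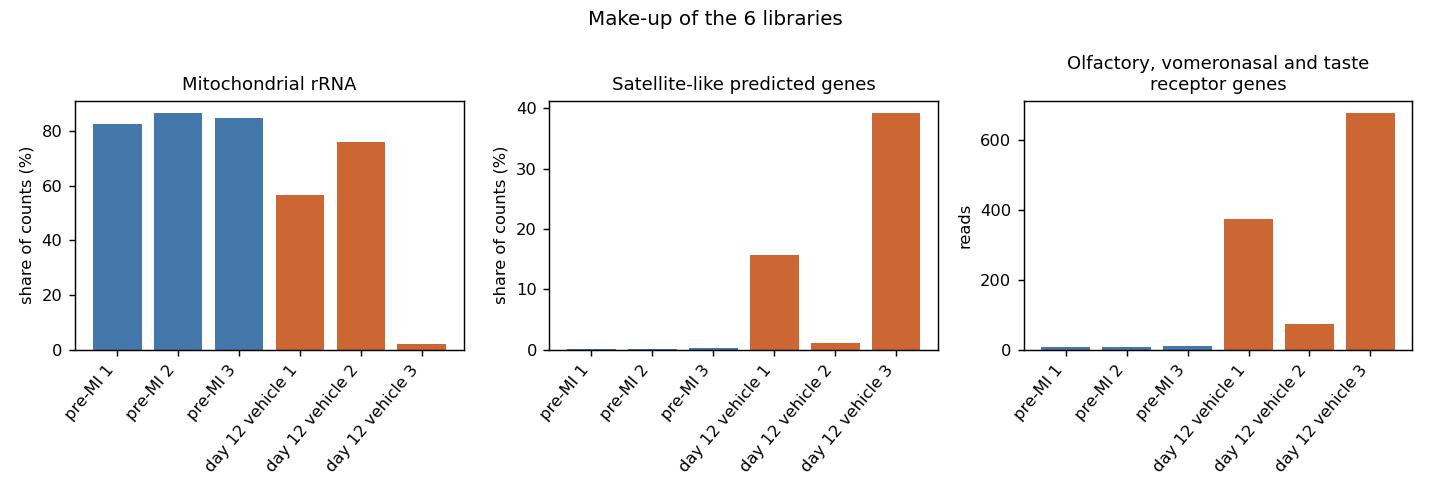
Make-up of the 6 libraries: share of recovered reads in both mitochondrial rRNA genes (left, %), share in 7 satellite-like predicted genes (middle, %), and reads of 102 sensory receptor genes (right). Bars are single libraries, blue before MI and orange at day 12 with vehicle. Vehicle replicate 3 has 2.01% mitochondrial rRNA and 39.3% satellite-like reads.

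The labelled cell type was checked against its own marker. Kit was at 19.5, 8.52 and 33.7 normalised counts in vehicle replicates 1 to 3 and at 18, 7.17 and 5.68 in pre-MI replicates 1 to 3, and the groups overlapped. Per exon kb Kit was above background in vehicle replicate 2 and not in replicates 1 and 3. Its values in the vehicle libraries had the same order as the sensory receptor reads, whose part in them was not tested. Before MI, genes of capillary endothelium and heart muscle were far higher per exon length, with Cd36 at 375, 304 and 291 and Actc1 at 376, 413 and 451 normalised counts per exon kb in pre-MI replicates 1 to 3, against 2.02, 0.805 and 0.637 for Kit. Of 10 mast cell genes, 2 reached the filter on the mean and none separated the groups. In bulk RNA, fewer cells of a type and less RNA per cell cannot be told apart.

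The libraries also differed in sex-linked reads. Xist, the RNA that coats the inactive X chromosome, was at 530.3, 8088 and 39.3 in the vehicle libraries and at 2202, 1.79 and 544 before MI. The Y-linked genes Kdm5d, Eif2s3y, Ddx3y and Uty together gave 1, 1 and 15 reads in vehicle replicates 1 to 3 and 22, 28 and 26 in pre-MI replicates 1 to 3. Pre-MI replicate 2 thus had Y-linked reads with 1 read of Xist, and vehicle replicates 1 and 2 had Xist with almost no Y-linked reads. Pre-MI replicates 1 and 3 and vehicle replicate 3 had both. Sex was not given in the labels used here, and its part in the differences between the groups was not tested.

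Genes with a mean of at least 10 normalised counts over the 6 libraries were tested, 4400 in number, with limma on log2(value + 1). The 6-library fit called 0 genes at an adjusted p under 0.05 (0% of the tested genes), with a smallest adjusted p of 0.0678 and 1209 genes at an unadjusted p under 0.05. On recovered reads edgeR also called 0 and DESeq2 called 425 higher and 129 lower. The fit without vehicle replicate 3, called the 5-library fit below, had 94 genes higher (2.14% of the tested genes) and 64 lower (1.45%), with a smallest adjusted p of 0.0233. The median log2 difference of all tested genes was -0.27 in the 6-library fit and -0.22 in the 5-library fit, so differences are read against these values. Single libraries decided these counts. The 6-library fit called 1561 genes without vehicle replicate 2 and 0 without vehicle replicate 1, and the 5-library count of 158 became 91, 10 and 43 when pre-MI replicate 1, 2 or 3 was left out as well and 724 when vehicle replicate 2 was. Scaling moved the split between directions: TMM gave 193 higher and 25 lower, and scaling to the reads outside mitochondrial and satellite-like genes gave 138 higher and 198 lower in the 5-library fit. Of the tested genes, 786 had a mean under 10 over the 5 other libraries and passed the filter only through vehicle replicate 3.

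The spread lay in the vehicle group. Across the tested genes, Pearson's r of log2 values, given as a description over genes of libraries that share a preparation, was 0.54 between vehicle replicates 1 and 2, 0.40 between 1 and 3 and -0.13 between 2 and 3, against 0.86 to 0.90 between pre-MI libraries. The median SD of log2 values was 0.90 over the vehicle libraries and 0.42 over the pre-MI libraries. All 3 vehicle libraries lay above all 3 pre-MI libraries in 598 genes (13.6% of the tested genes), and all 3 lay below in 918 (20.9%). Vehicle replicate 3 was the highest library in 458 of those 598 genes and the lowest in 666 of those 918. Only 55 of the 598 were above background in all 3 vehicle libraries.

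Replicate 3, which did not enter the 5-library fit, can be set beside its calls. It lay above all pre-MI libraries in 89 of the 94 genes that rose, against 1570 of all tested genes (35.7%). The 5 others were Ccl6, Lrrn4, Cxcl2, Ptk2b and Lyz2, all named after their values were seen. It lay below all pre-MI libraries in 64 of the 64 that fell, against 2113 of all tested genes (48.0%). The pre-MI libraries served both in choosing these genes and in this count, and the filter on the mean included replicate 3. Of the 94 rises, 59 were above background in vehicle replicates 1 and 2, 12 had predicted gene names, and 5 of these were satellite-like genes. Of the 94, 16 had no read in any pre-MI library, and their fitted differences depend on the pseudocount. Further rises moved with the satellite-like share but missed the rule on share or name. Gm11168 was at 751, 91.9 and 858 in the vehicle libraries, and Gm10719 at 758, 113 and 1172. Gm10720 was at 396, 59.7 and 557, and AC131780.1 at 1073, 81.6 and 1333. Like most of the satellite-like rises, they lie on chromosome 9. Sfi1, a centrosome gene, was at 682, 91.3 and 711 in the vehicle libraries and 16.1, 5.38 and 28.4 before MI.

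**Figure D2:**
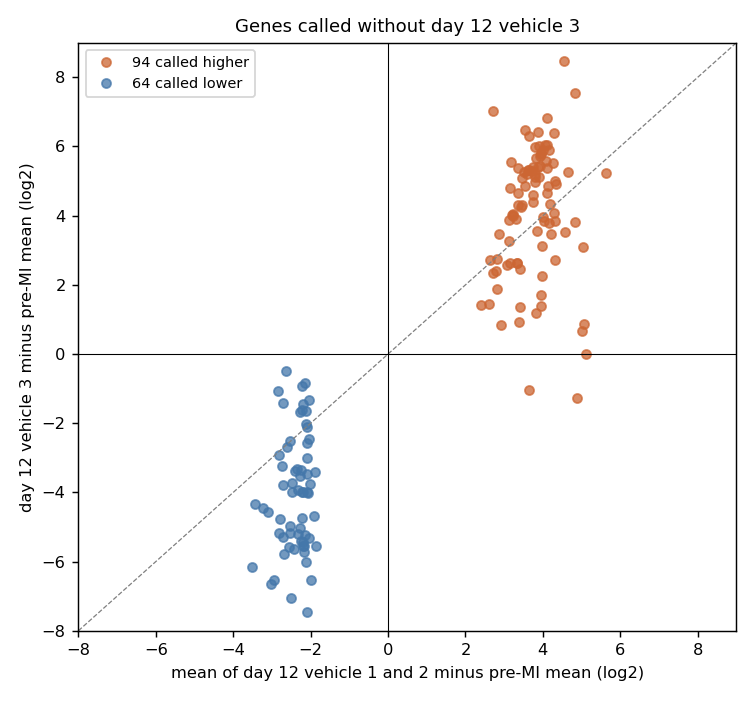
The 158 genes called without vehicle replicate 3, placed by the log2 difference of vehicle replicates 1 and 2 from the pre-MI mean (x axis, values that chose the genes) and of vehicle replicate 3 from the same mean (y axis). Orange points are the 94 rises and blue points the 64 falls; replicate 3 lay below all pre-MI libraries for the 64 falls and above all of them for 89 of the rises.

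The 4 genes named for the comparison come first, with the promoters of 2 of them and of the muscle actin Actc1, since macrophage and heart muscle genes differed in opposite directions. The sequences are RefSeq promoters of GRCm38.p6, 250 bases before to 50 bases after the start, written 5′ to 3′ on the gene's strand. Capitals in the first pair mark GAGGAA on either strand, the core of sites of PU.1, a transcription factor of myeloid cells. Itgam lies at chr7:128062390-128062689 on the plus strand and Csf2ra at chr19:61228369-61228668 on the minus strand.
Itgam: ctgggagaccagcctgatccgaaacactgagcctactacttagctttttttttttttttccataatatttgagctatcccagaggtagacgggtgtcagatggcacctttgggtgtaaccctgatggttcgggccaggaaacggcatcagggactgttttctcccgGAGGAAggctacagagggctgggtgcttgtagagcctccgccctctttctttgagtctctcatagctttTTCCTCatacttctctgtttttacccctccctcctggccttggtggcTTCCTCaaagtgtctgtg
Csf2ra: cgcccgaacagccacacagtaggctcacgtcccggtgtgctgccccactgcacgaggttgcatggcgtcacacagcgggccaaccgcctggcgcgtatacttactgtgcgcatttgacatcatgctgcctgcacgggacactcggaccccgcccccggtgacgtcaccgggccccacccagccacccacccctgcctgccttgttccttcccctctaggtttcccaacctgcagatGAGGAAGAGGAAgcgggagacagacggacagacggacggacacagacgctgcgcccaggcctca
In the Myh6 promoter (chr14:54966558-54966857, minus strand) and the Actc1 promoter (chr2:114052826-114053125, minus strand), capitals mark CATTCC on either strand, the core of sites of TEAD factors, and TATAAA on either strand, the TATA box.
Myh6: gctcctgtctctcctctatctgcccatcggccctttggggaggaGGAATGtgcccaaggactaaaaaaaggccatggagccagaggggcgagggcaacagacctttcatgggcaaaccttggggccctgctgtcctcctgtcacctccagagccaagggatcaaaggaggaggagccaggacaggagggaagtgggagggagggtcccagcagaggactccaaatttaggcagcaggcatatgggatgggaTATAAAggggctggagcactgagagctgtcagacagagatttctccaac
Actc1: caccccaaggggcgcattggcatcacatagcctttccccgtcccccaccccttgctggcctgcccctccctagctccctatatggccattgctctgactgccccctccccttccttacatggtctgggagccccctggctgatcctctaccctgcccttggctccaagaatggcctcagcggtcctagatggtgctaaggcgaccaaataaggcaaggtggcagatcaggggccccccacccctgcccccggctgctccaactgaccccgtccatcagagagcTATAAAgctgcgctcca
The window of Itgam held 3 matches to GAGGAA and that of Csf2ra held 2, which follow each other without a gap. Myh6 held 1 match to CATTCC, 1 to the TATA box, and 1 to the PU.1 core that overlaps the CATTCC match and is not in capitals as such. Actc1 held 1 match to the TATA box and 0 to CATTCC. Of 32851 promoters of the same length, 28.3% held GAGGAA, 14.7% CATTCC and 13.6% TATAAA. Among other genes described below, GAGGAA had 2 matches in Dock2, 1 in Trem2, 1 in Olr1, 1 in the first of the Tnnt2 windows and 0 in the second, and 0 in Pid1, C3ar1, Ccl9 and Pln. TATAAA had 3 matches in Ccl9, 1 in C3ar1 and 1 in Pln. It had 0 in Itgam, Csf2ra, Dock2, Trem2, Olr1, Pid1 and both Tnnt2 windows, so it occurred among rises and falls. CATTCC had 1 match in the first Tnnt2 window and 0 in the other windows but that of Myh6. A match of letters is a description and not a bound site.

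Itgam (chr7:128062640-128118491, plus strand) encodes CD11b, the alpha chain of complement receptor 3 of monocytes, macrophages and neutrophils. Its exons gave 31.1, 156 and 52.4 normalised counts in vehicle replicates 1 to 3 and 1.89, 0 and 0 in pre-MI replicates 1 to 3. Every vehicle library was above every pre-MI library, and pre-MI replicates 2 and 3 had no read. It was above background in vehicle replicates 1 and 2 and not in replicate 3, at 10.4 normalised counts per exon kb there against a level of 17.4. The log2 difference was 5.50 with an adjusted p of 0.0678 in the 6-library limma fit, and 5.64 ± 0.80 (SE) with 0.0233 in the 5-library fit, in which it rose. Over 17 alternatives the adjusted p of Itgam ranged from 3.3e-05 to 0.265, past the threshold in 7.

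Csf2ra (chr19:61223957-61228429, minus strand) encodes the alpha chain of the GM-CSF receptor. It was at 14, 41.4 and 107 in the vehicle libraries and at 0, 0 and 1.14 before MI. The groups did not overlap, and it was above background in all 3 vehicle libraries. The log2 difference was 4.99 (limma adjusted p 0.0733) with 6 libraries and 4.29 ± 0.78 (adjusted p 0.0275) with 5, with adjusted p from 8.75e-05 to 0.265 over 17 alternatives.

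Pid1 (chr1:84036296-84364180, minus strand) encodes an adaptor protein that binds lipoprotein receptors and dampens insulin signalling. It gave 24.9, 145 and 91.6 in the vehicle libraries against 1.89, 3.59 and 1.14 before MI, again without overlap. Like Itgam it was above background in vehicle replicates 1 and 2 and not in replicate 3, at 11.2 per exon kb there. Its log2 difference was 4.53 (limma adjusted p 0.0678) and 4.33 ± 0.73 (adjusted p 0.025) with 6 and 5 libraries, and it rose in the latter. The adjusted p of Pid1 ranged from 6.89e-05 to 0.265 over 17 alternatives.

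Myh6 (chr14:54941921-54966927, minus strand) encodes the alpha myosin heavy chain of adult mouse heart muscle. It was at 21, 38.4 and 15 in the vehicle libraries and 227, 439 and 327 before MI, with every vehicle library below every pre-MI library. The log2 difference was -3.74 (limma adjusted p 0.0678) with 6 libraries and -3.44 ± 0.50 (adjusted p 0.0233) with 5, in which it fell. Over 18 alternatives its adjusted p ranged from 7.13e-06 to 0.265. For Itgam, Csf2ra, Pid1 and Myh6 the lowest adjusted p came from the fit with a quality weight per library. In that fit the vehicle group rests mostly on replicate 1. Myh6 is near-identical in sequence to Myh7 over long stretches, and the authors kept reads that mapped to 1 place.

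**Figure D3:**
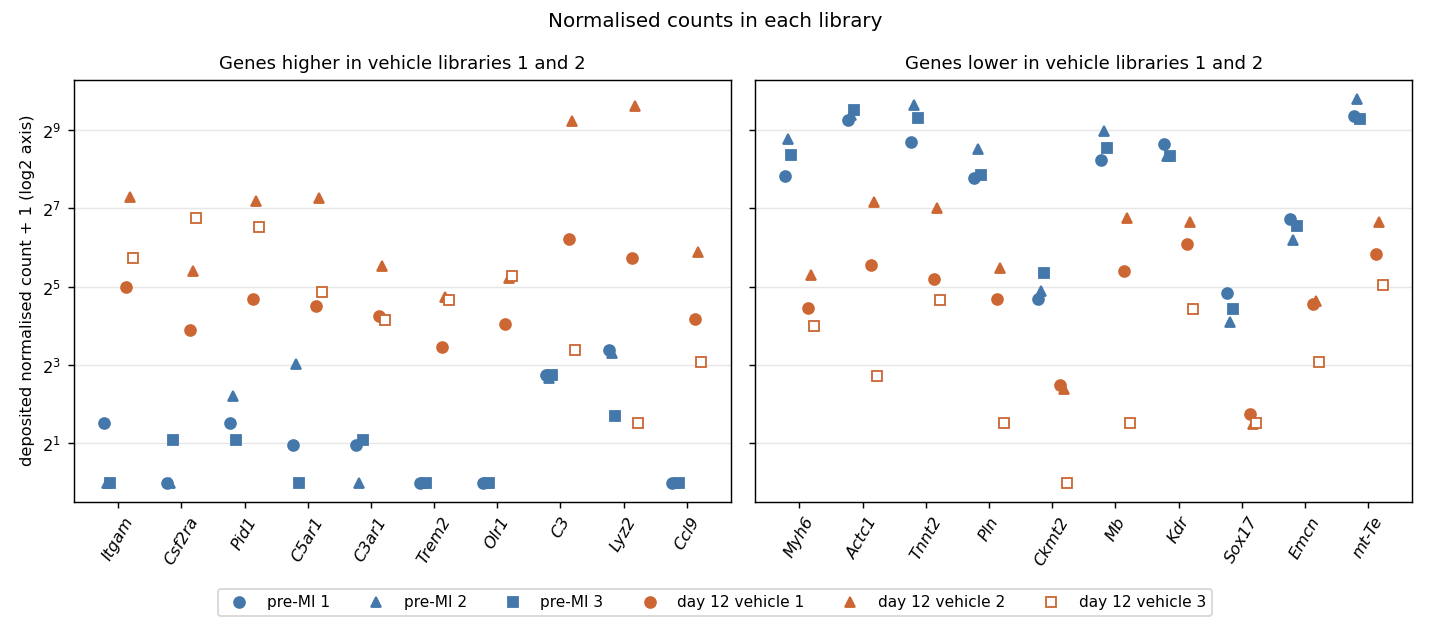
Normalised counts plus 1 (log2 axis) of 10 genes that were higher (left) and 10 that were lower (right) in vehicle replicates 1 and 2. Each point is 1 library, blue before MI and orange at day 12 with vehicle; open squares are vehicle replicate 3. Open squares lie below the other vehicle libraries for C3ar1, C3, Lyz2, Ccl9 and the genes on the right other than Sox17, and above vehicle replicate 1 for Itgam, Csf2ra and Pid1.

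Macrophage and monocyte genes were higher as a list. Of 25 members, 24 were listed and 11 passed the filter on the mean. In 9 of these 11 the groups did not overlap, all higher after MI (13.6% of all tested genes did so), and 8 of 11 rose in the 5-library fit (2.14% of all). The median log2 difference of the tested members was 3.11 with 6 libraries and 3.94 with 5, against -0.27 and -0.22 over all tested genes. A gene with no read before MI has no true fold, and with such genes set to a bound, the vehicle mean against 3 reads in a pre-MI library, the medians were 2.82 and 3.34. Members that passed only because they were high after MI had to differ, so these counts describe the list and are no support for it. This holds for each list below, and the shares over all tested genes that stand beside each list are 13.6% higher and 20.9% lower without overlap, and 2.14% that rose and 1.45% that fell in the 5-library fit. The summed value of all listed members was 274, 1643 and 365 in vehicle replicates 1 to 3 and 25.0 to 32.3 before MI. Ccr2, Trem2, Cd14, Fcgr1, C1qa, Cd163, Timd4 and Gpnmb were at 0 in all 3 pre-MI libraries, and C1qa and F13a1 were also at 0 in vehicle replicate 3.

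The macrophage genes did not move alike in vehicle replicate 3. Lyz2, the lysozyme of macrophages and neutrophils, was at 52.2, 787 and 1.87 in the vehicle libraries and 9.46, 8.96 and 2.27 before MI, so the groups overlapped through replicate 3 alone. It rose in the 5-library fit by 4.87 ± 0.95 on the log2 scale (limma adjusted p 0.0305) and was at 0.273 with 6 libraries. C1qb, a chain of complement C1q made by resident macrophages, was at 10.9, 65.1 and 3.74 against 0, 1.79 and 1.14, and Ctss, the lysosomal protease cathepsin S, was at 10.1, 84.6 and 5.61 against 1.89, 1.79 and 0. Both rose in the 5-library fit and had their lowest vehicle value in replicate 3. Trem2, a lipid-sensing receptor of macrophages that clear debris, was at 10.1, 25.6 and 24.3 against 0 in every pre-MI library and rose in the 5-library fit, with a vehicle mean at least 3.72-fold higher by that bound. Per exon kb it was at 2.05, 5.17 and 4.91 in vehicle replicates 1 to 3, above background in replicate 2 only. Trem2 passed the filter on the mean only through vehicle replicate 3. Mrc1, the macrophage mannose receptor, was at 16.4, 40.2 and 13.1 against 4.73, 3.59 and 1.14 and rose in the 5-library fit.

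Members that did not pass the test were Csf1r, C1qc and Ccr2. Csf1r, the receptor for M-CSF, was at 13.2, 47.5 and 24.3 in the vehicle libraries against 1.89, 5.38 and 6.82 before MI, without overlap. Ccr2, the chemokine receptor of monocytes recruited from blood, was at 1.56, 23.1 and 39.3 against no read in any pre-MI library. Adgre1, a classical macrophage marker listed under its older symbol Emr1, stayed under the filter with at most 11.6 in a vehicle library and 1.89 in a pre-MI library.

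Complement genes were the next group. Of 14 members 6 passed the filter, 4 were higher without overlap (13.6% of all tested genes) and 3 rose in the 5-library fit (2.14% of all), with medians of 3.12 and 3.71. C3, the central component that tags debris, was at 74, 596 and 9.35 in the vehicle libraries and 5.68, 5.38 and 5.68 before MI. All 3 vehicle libraries were above the pre-MI range, replicate 3 by little, and C3 rose by 5.01 ± 0.73 on the log2 scale in the 5-library limma fit (adjusted p 0.0233). C5ar1, the receptor for the fragment C5a that draws in phagocytes, was at 21.8, 153 and 28 against 0.946, 7.17 and 0 and rose in the same fit (adjusted p 0.0373). C3ar1, the receptor for C3a, was at 17.9, 45.1 and 16.8 against 0.946, 0 and 1.14 and also rose (adjusted p 0.025). Itgb2, the beta chain that pairs with the product of Itgam, was at 7.01, 52.4 and 5.61 against 2.84, 1.79 and 0 and did not pass (adjusted p 0.0662 with 5 libraries).

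Of 22 cytokine and chemokine genes, 4 passed the filter, 2 were higher without overlap (13.6% of all tested genes) and 3 rose in the 5-library fit (2.14% of all). The filter kept Ccl9, Ccl6 and Cxcl2 through their vehicle values, so the counts are a description. The medians were 3.54 and 5.05, or 2.70 and 3.06 with genes of no pre-MI read at their bound. Ccl9 and Ccl6, CC chemokines of mouse myeloid cells, were at 17.1, 58.4 and 7.48 and at 14.8, 74.9 and 0 in vehicle replicates 1 to 3, with no read before MI. Cxcl2, which draws neutrophils, was at 21.8, 121 and 1.87 against 2.84, 0 and 0. Replicate 3 had the lowest vehicle value for all 3 genes, and for Ccl6 it was at 0 like the pre-MI libraries. Il1rn, the antagonist of the interleukin-1 receptor, was at 7.01, 53 and 15 against 0, 1.79 and 4.54, without overlap and without passing the test.

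Genes of lipid uptake and phagocytosis split. Of 12 members 11 passed the filter, 4 were higher and 3 lower without overlap, and in the 5-library fit 4 rose and 1 fell. Olr1, the receptor LOX-1 for oxidised LDL, had the widest gap between the groups among the rises with a gene symbol that is not a predicted gene. It was at 15.6, 36.5 and 37.4 in the vehicle libraries with no read before MI, at least 5.55-fold higher by the vehicle mean against 3 reads in a pre-MI library. It rose in the 5-library fit (limma adjusted p 0.025, 0.0798 with 6 libraries). Dock2, a Rac activator of migrating leukocytes, was at 27.3, 28 and 13.1 with no read before MI and rose. Per exon kb it was above background in vehicle replicate 2 and not in replicates 1 and 3. Cd44, the hyaluronan and osteopontin receptor, was at 42.8, 219 and 16.8 against 15.1, 3.59 and 10.2 and rose in the 5-library fit. The fatty acid transporter and scavenger receptor Cd36, abundant in heart capillaries and muscle, went the other way, at 203, 362 and 5.61 against 1347, 1090.0 and 1044, and fell in the 5-library fit (limma adjusted p 0.0497).

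Further leukocyte genes among the rises of the 5-library fit belonged to none of these lists, except H2-Aa, a chain of MHC class II, at 10.1, 44.4 and 15 against 0.946, 3.59 and 1.14. Ptprc, which encodes the leukocyte antigen CD45, was at 15.6, 71.8 and 7.48 against 1.89, 1.79 and 3.41. Cybb, the catalytic subunit of the phagocyte NADPH oxidase, was at 10.9, 105 and 18.7 against 0.946, 1.79 and 1.14. Per exon kb Ptprc and Cybb were above background in vehicle replicate 2 and not in replicates 1 and 3. Chi3l3, the chitinase-like protein Ym1 of mouse macrophages, was at 7.01, 48.7 and 5.61 with no read before MI. Laptm5 and Cd53, membrane proteins of leukocytes, were at 19.5, 135 and 15 and 11.7, 65.8 and 3.74 against 2.84, 3.59 and 1.14 and 0.946, 3.59 and 0. These 5 were picked after their values were seen. In the 4 immune lists together, 15 of 24 tested genes rose in the 5-library fit (2.14% of all tested genes), and members with few reads before MI were kept by the filter through the vehicle libraries.

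Lists for other blood cells stayed low. None of the 15 neutrophil genes and none of the 10 B cell genes reached the filter. Their summed values were 44.4, 65.1 and 31.8 for neutrophil and 35.0, 6.7 and 28.0 for B cell genes in vehicle replicates 1 to 3, against at most 1.14 and 3.78 before MI. The T and NK cell list summed to 118, 95.6 and 252 against 6.62 to 16.1, and 2 of its members passed the filter, with none called in either fit. These sums were higher after MI along with the sensory receptor reads, whose part in them was not tested. Vehicle replicate 3 was highest in the T and NK cell sum, replicate 1 in the B cell sum and replicate 2 in the neutrophil sum.

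**Figure D4:**
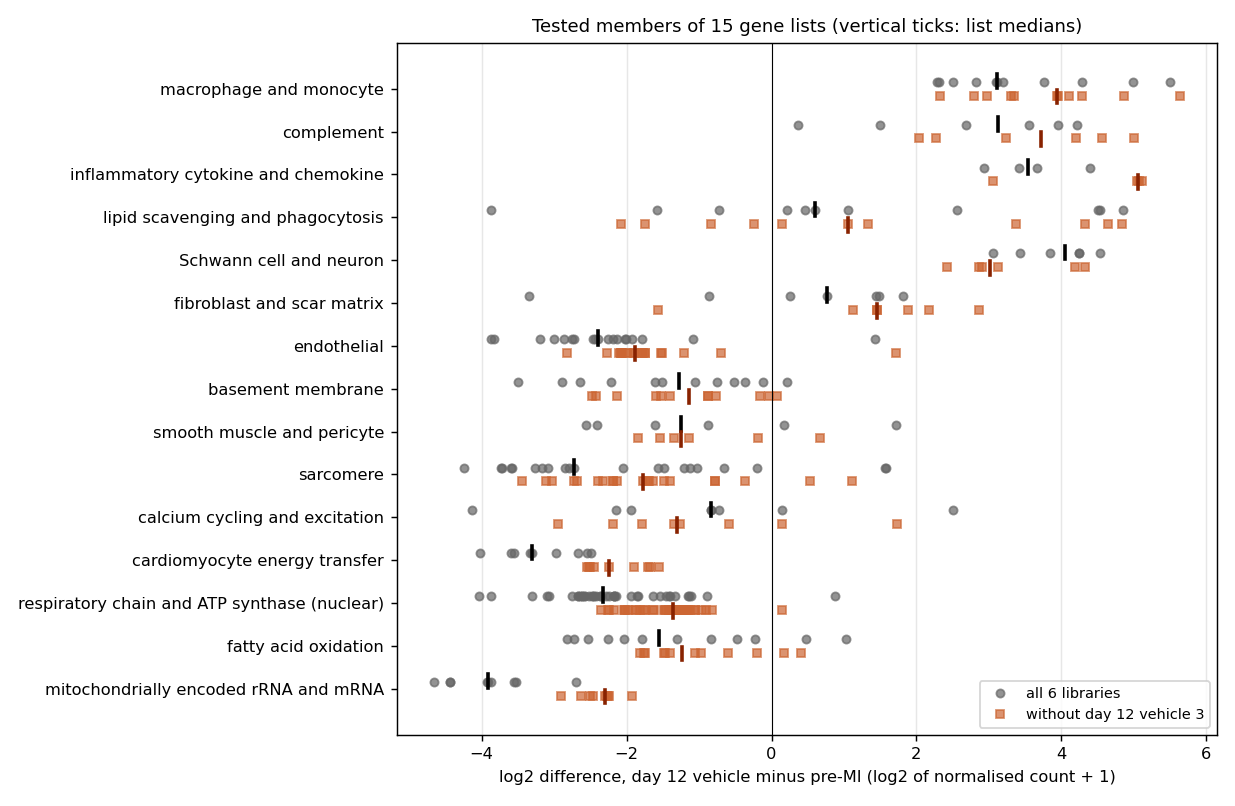
Log2 difference (day 12 vehicle minus pre-MI) of each tested member of 15 gene lists, with all 6 libraries (gray circles) and without vehicle replicate 3 (orange squares); vertical ticks are the list medians. Macrophage, complement and chemokine lists lie to the right (medians 3.11, 3.12 and 3.54 with 6 libraries, fitted with a pseudocount of 1), and sarcomere, energy transfer, respiratory chain and endothelial lists to the left (medians -2.72, -3.30, -2.32 and -2.40).

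Heart muscle genes were lower together. Of 24 sarcomere genes 21 passed the filter, 16 were lower without overlap (20.9% of all tested genes) and 10 fell in the 5-library fit (1.45% of all). The list's median log2 difference was -2.72 with 6 libraries and -1.78 with 5. Its summed value was 654, 941 and 552 in vehicle replicates 1 to 3 and 2768 to 4905 before MI. Actc1, cardiac alpha actin of the thin filament, was at 45.9, 142 and 5.61 in the vehicle libraries and 608, 669 and 729 before MI. It fell by 3.03 ± 0.55 on the log2 scale in the 5-library limma fit (adjusted p 0.0275, 0.083 with 6 libraries). Tnnt2, cardiac troponin T, was at 35.8, 127 and 24.3 against 412, 801 and 630.4 and fell by 3.11 ± 0.60 (limma adjusted p 0.0305). The 8 other falls were Myh6, described above, the light chains Myl2 and Myl3, the inhibitory troponin Tnni3, tropomyosin Tpm1, and the Z-disc genes Tcap, Myoz2 and Csrp3.

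Not every sarcomere gene was low. Ttn, the giant spring titin, was at 212, 129.7 and 168 against 329, 705 and 441, lower without overlap but not past the test. Myl4, the atrial light chain, was at 14.8, 6.7 and 28 against 0, 10.8 and 10.2. Its groups overlapped, and vehicle replicate 2, with the fewest sensory receptor reads of the vehicle libraries, was the lowest vehicle library.

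Of 16 genes of calcium cycling and excitation, 8 passed the filter, 3 were lower without overlap (20.9% of all tested genes) and 2 fell in the 5-library fit (1.45% of all), with medians of -0.84 and -1.31. Pln, phospholamban, the brake on the calcium pump of the sarcoplasmic reticulum, was at 24.9, 43.8 and 1.87 against 219.5, 362 and 229 and fell by 2.95 ± 0.49 on the log2 scale (limma adjusted p 0.025). The pump gene itself, Atp2a2, was at 27.3, 50.5 and 16.8 against 115, 139.8 and 139, lower without overlap, and did not pass (adjusted p 0.061 with 5 libraries). Gja1 encodes the gap junction protein connexin 43. It was at 10.1, 14 and 20.6 against 73.8, 69.9 and 37.5 and fell in the 5-library fit. Not every gene of this kind was lower, though none of the 8 was higher without overlap. The log2 difference of Cacna1c, a calcium channel gene, ranged from 1.57 to 3.35 over 17 alternatives, past the threshold in 3. That of Ryr2, the calcium release channel gene, ranged from -1.27 to -0.28, past it in none.

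Genes that move energy within muscle cells had the lowest values in vehicle replicate 3. Of 12 members 9 passed the filter, 7 were lower without overlap and 4 fell in the 5-library fit, with medians of -3.30 and -2.25. Mb, myoglobin, was at 41.3, 107 and 1.87 in the vehicle libraries and 299, 504 and 370.3 before MI and fell by 2.51 ± 0.54 on the log2 scale (limma adjusted p 0.0374). Ckm and Ckmt2, the muscle and mitochondrial creatine kinases, were at 3.89, 12.8 and 0 and 4.67, 4.26 and 0 against 30.3, 64.5 and 53.4 and 24.6, 28.7 and 39.8. Fabp3, the heart fatty acid binding protein, was at 8.57, 7.31 and 0 against 32.2, 52 and 42. All 4 fell in the 5-library fit, and 3 of them had no read in replicate 3, where 3 reads would be 5.61 normalised counts.

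Mitochondrial genes of both genomes were lower. Of 55 nuclear genes of the respiratory chain and ATP synthase 40 passed the filter, 31 were lower without overlap and none was higher, but only Sdhd and Atp5b fell in the 5-library fit. The list's medians were -2.32 and -1.36. Sdhd, a membrane anchor of complex II, was at 5.45, 4.87 and 1.87 against 21.8, 43 and 23.9, and Atp5b, the catalytic subunit of ATP synthase, at 30.4, 43.2 and 1.87 against 120.2, 161 and 126. Of 18 genes of fatty acid oxidation 12 passed the filter and 7 were lower without overlap, with none called in either fit.

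The 9 tested rRNA and mRNA genes of the mitochondrial genome were all lower without overlap and none passed. The large ribosomal RNA gene mt-Rnr2 was at 311828, 700341 and 3461 normalised counts in the vehicle libraries and at 1655672, 3412633 and 2172499 before MI. Vehicle replicate 3 was far below the other vehicle libraries. Among mitochondrial tRNA genes 6 passed the filter and mt-Te, mt-Tq, mt-Ti and mt-Tl1 fell in the 5-library fit. The tRNA of glutamate, mt-Te, was at 56.1, 99.2 and 31.8 against 657, 886 and 617 and fell by 3.23 ± 0.49 on the log2 scale (limma adjusted p 0.0233). These genes lie between other genes of 1 long transcript, and reads of the tRNA and of unprocessed RNA cannot be told apart.

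Endothelial genes were lower in nearly the whole list. Of 20 members 19 passed the filter, 17 were lower without overlap and Kdr, Tie1, Emcn, Cd36, Aplnr and Sox17 fell in the 5-library fit, with medians of -2.40 and -1.88. Kdr, the main VEGF receptor, was at 67, 99.2 and 20.6 in the vehicle libraries and 402, 323 and 324 before MI and fell by 2.08 ± 0.46 on the log2 scale (limma adjusted p 0.0404). Sox17, a transcription factor of arterial endothelium, was at 2.34, 1.83 and 1.87 against 27.4, 16.1 and 20.4 and fell by 2.83 ± 0.54 (limma adjusted p 0.0303). It was the endothelial gene in which the vehicle libraries, replicate 3 included, were closest to each other. These values rest on 3, 3 and 1 reads in vehicle replicates 1 to 3, so closeness near 0 says little about how alike the libraries were. Tie1, an angiopoietin co-receptor, was at 18.7, 30.4 and 16.8 against 112, 100.4 and 105, and Aplnr, the apelin receptor of capillaries, at 17.9, 53 and 3.74 against 163, 138 and 159.

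One endothelial gene stood on the other side. Vwf, von Willebrand factor, which binds platelets and is highest in veins and endocardium, was at 42, 42 and 22.4 in the vehicle libraries and 9.46, 16.1 and 11.4 before MI. The groups did not overlap, and it did not pass the test (limma adjusted p 0.121 with 6 libraries and 0.0666 with 5).

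Further vessel genes among the falls of the 5-library fit lay outside the endothelial list. Cd93 and Jam2, membrane proteins of endothelial cells, were at 70.1, 138 and 5.61 and 24.9, 40.2 and 3.74 against 459.9, 396 and 428 and 137, 120.1 and 108, and Apold1, an endothelial early response gene, at 15.6, 15.8 and 24.3 against 71.9, 82.5 and 86.3. These 3 were picked after their values were seen. Of 15 basement membrane genes 12 passed the filter and 8 were lower without overlap. Col4a1 and Col4a2, the chains of collagen IV, were at 67.7, 136 and 9.35 and 28.8, 85.8 and 20.6 against 612, 437 and 520.2 and 312, 265 and 273, and both fell in the 5-library fit. Hspg2, the proteoglycan perlecan, was at 62.3, 213 and 39.3 against 584, 351 and 655 and did not pass.

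Scar matrix genes were not called in either fit. Of 20 fibroblast and matrix genes 7 passed the filter, and 1 was higher and 1 lower without overlap. Without vehicle replicate 3, 4 of the 7 were higher without overlap (15.9% of all tested genes) and 1 lower, and the median moved from 0.76 to 1.46. Fn1, fibronectin, was at 153, 1063 and 22.4 in the vehicle libraries against 46.4, 48.4 and 72.7 before MI, and Col1a1 at 60.7, 324 and 31.8 against 36.9, 53.8 and 64.7. Vehicle replicates 1 and 2 stood within or above the pre-MI range in both and replicate 3 below it. Fn1 had a log2 difference of 1.49 with 6 libraries and 2.86 with 5 (limma adjusted p 0.0504). Col5a1, a chain of collagen V, was higher without overlap at 25.7, 30.4 and 24.3 against 5.68, 5.38 and 10.2. Sparc, a matrix protein also made by endothelium, was lower at 248, 699 and 9.35 against 1292, 1049 and 1401.

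The study asks about Wnt signalling, so its genes were read as lists. Of 24 ligands, receptors and transducers 10 passed the filter, 1 was higher and 4 lower without overlap (13.6% and 20.9% of all tested genes), with a median of -0.62. Ctnnb1, beta-catenin, the transducer of the canonical pathway, was at 45.2, 124 and 11.2 against 553, 473 and 315 and fell by 2.52 ± 0.55 on the log2 scale in the 5-library limma fit (adjusted p 0.0377, 0.0849 with 6 libraries). Fzd4, a Wnt and Norrin receptor of endothelium, was at 6.23, 15.8 and 5.61 against 30.3, 34.1 and 35.2, lower without overlap and without a call. Wnt4 was at 6.23, 3.04 and 108 with no read before MI, and most of its level came from replicate 3. Of 14 canonical Wnt target genes Lef1 and Ccnd1 passed the filter, the first higher at 17.9, 9.13 and 56.1 against 0, 1.79 and 2.27 and the second lower at 29.6, 66.4 and 11.2 against 92.7, 78.9 and 86.3, neither called. None of 9 Wnt inhibitor genes reached the filter.

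Genes with the widest gaps between the groups also held several near the background level. Ccbe1, a matrix protein of lymphatic growth, was at 40.5, 12.2 and 357 in the vehicle libraries with no read before MI, rose in the 5-library fit and was above background in all 3 vehicle libraries. Sh3rf3, a ubiquitin ligase, was at 28, 11.6 and 44.9 with no read before MI and rose, above background in vehicle replicates 1 and 2. Zfhx4, Gad2, Jph4 and Ntrk2, genes known mainly from neurons or muscle, had no read before MI and at least 9.74 in each vehicle library; each rose in the 5-library fit. Per exon kb none was above background in vehicle replicates 1 and 3, and Zfhx4, Gad2 and Jph4 were above it in replicate 2. Sh3rf3, Zfhx4, Gad2, Jph4 and Ntrk2 passed the filter on the mean only through vehicle replicate 3. Of 15 Schwann cell and neuron genes 6 passed the filter, 5 were higher without overlap and Celf2, Srrm4 and St6galnac5 rose, and the list's summed value was 305, 135 and 557 in vehicle replicates 1 to 3, the same order as the sensory receptor reads. The part of that background in these rises was not tested. The median exon length was 7.15 kb over the 94 rises and 3.64 kb over the 64 falls, against 6.42 kb over all tested genes.

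Among the falls with the widest gaps that no list above holds, Cdkn1c, an imprinted inhibitor of the cell cycle, was at 2.34, 3.65 and 0 against 23.7, 34.1 and 22.7. Smpx, a small protein of striated muscle, was at 4.67, 3.65 and 0 against 36, 43 and 28.4, and Fhl2, a LIM protein of the heart, at 8.57, 7.91 and 3.74 against 42.6, 61 and 37.5. Ddit4, an inhibitor of mTOR under stress, was at 3.11, 7.91 and 1.87 against 35, 34.1 and 48.8, Ech1, an enzyme of fatty acid breakdown, at 5.45, 7.31 and 0 against 35, 32.3 and 39.8, and the phosphatase gene Ptp4a3 at 5.45, 6.09 and 3.74 against 53.9, 32.3 and 48.8. All 6 fell in the 5-library fit, and in each every vehicle library was below every pre-MI library. The naming rule left out 8430408G22Rik, now named Depp1, which was picked after its values were seen. It was at 5.45, 4.87 and 0 against 69.1, 73.5 and 67.0. Its gap between the groups was 3.40 on the log2 scale, wider than that of Myh6 (2.53). It fell by 3.52 ± 0.46 on the log2 scale in the 5-library limma fit (adjusted p 0.0233).

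Other libraries of c-Kit(+) cells can be set beside the vehicle libraries as values only. In the day 12 Sfrp2 libraries Itgam was at 23.2, 30.1 and 29, Csf2ra at 12.7, 22 and 18.4, Pid1 at 26.8, 28.2 and 28.6 and Myh6 at 15.5, 12.6 and 15.5 in replicates 1 to 3. In the day 1 libraries Itgam was at 85.5 and 57.4, Csf2ra at 33.1 and 17.2, Pid1 at 106 and 106 and Myh6 at 36.3 and 49.4. All of these were on the same side of the pre-MI range as the vehicle libraries for Itgam, Csf2ra, Pid1 and Myh6. No difference between these groups and the vehicle group was tested here.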

How the data were processed

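Per the labels' protocols, RNA was isolated with a PicoPure kit and amplified as cDNA with an Ovation Pico WTA kit. Trim Galore, which runs Cutadapt, removed adaptors and poor bases, and reads under 20 nt were dropped. STAR placed the rest on GRCm38, reads with more than 1 place were dropped, and HTSeq counted reads per gene. Genes that reached 10 reads in some library entered the DESeq2 normalisation. Tool versions and the strand setting were not given in the sources used here, so reads of a gene and of an antisense partner cannot be told apart, and genes with near-identical copies (globins, satellite-like genes) are uncertain. The authors deposited normalised counts, a signal that equals each gene's reads over the size factor of its library. Dividing by the value of 1 read gave whole reads for 100% of the values of each library within a tolerance of 0.001. The authors' fold change and p columns were not used. All value columns of the sheet were mapped to samples by their names and the labels.

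Here, genes with a mean of at least 10 over the 6 libraries were tested with limma 3.58.1 (R 4.3.3, trended variance) on log2(value + 1), which understates the change of low genes, with and without vehicle replicate 3. Adjusted p (Benjamini-Hochberg, all 4400 tested genes) had to be under 0.05. As alternatives, edgeR 4.0.16 (quasi-likelihood) and DESeq2 1.42.0 were run on the recovered reads, where edgeR called 0 genes with 6 libraries and 412 with 5. Other pseudocounts, filters and scalings, a quality weight per library, a fit of all 11 c-Kit libraries, a replicate block and the omission of each library were also tried. In 10 simulated draws with 200 changed genes among those with a mean of at least 20, the 6-library fit recovered 91.1% of 16-fold and 19.8% of 4-fold changes, with a mean of 6.7 false calls among 118 per draw. Each simulated library had the size factor of its real library, and the libraries of a group had the same expected values. The differences in background between the vehicle libraries were not simulated as such, so the recovery in the real data may differ. Without molecular identifiers a read is not an independent molecule, so read numbers give counting error only.

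The text names the 12 rises and the 12 falls with the widest gap between the groups. Predicted gene names, names with Rik and mitochondrially encoded genes were left out of that ranking. Also named are the 4 genes given with the comparison and Kit, and up to 5 members of each of 40 gene lists with the smallest p. The 10 genes with the widest range among the vehicle libraries complete the rule. Of these the ones that describe a group are printed, and further list members and other genes where stated. The comparison, the members and the lists were chosen with earlier results of these data known. Exon lengths and gene positions came from GENCODE M21 (GRCm38), which matched 98.9% of the listed genes, and promoters from RefSeq (GRCm38.p6). Some list members count in the list values and are not reported here by name.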

Additional observations from a re-analysis of the deposited data

How the results depend on the processing

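Called genes with 6 libraries were 0 in the main fit, without the filter on the mean, with a mean of at least 50, with a pseudocount of 0.5, with TMM, with scaling to reads outside mitochondrial and satellite-like genes, with centring on the median and by edgeR. A pseudocount of 5 gave 14 (9 higher, 5 lower) and DESeq2 554 (425 and 129). A fit of all 11 c-Kit libraries gave 935 (476 and 459), and a quality weight per library gave 2216 (792 and 1424). The weights were 4.44, 0.254 and 0.202 in vehicle replicates 1 to 3 and 1.28 to 2.19 before MI. In the weighted fit the vehicle group thus rests mostly on replicate 1. Leaving out 1 library gave 0 to 1561 calls, 0 to 589 higher and 0 to 972 lower; the 1561 came without vehicle replicate 2. A replicate block gave 50 (38 higher, 12 lower) with 6 libraries and 182 higher and 43 lower with 5. The correlations of deviations between libraries of the same number were -0.0538, 0.0223 and 0.000668, all under 0.1. The labels give only the number, and such correlations cannot show whether libraries of the same number share a batch. Among 175 genes the naming rule gave, no sign turned past the threshold, and the sign was kept for 166 to 175 of them in every alternative run on all 175.

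The alternatives of the 5-library fit, with 158 calls (94 higher, 64 lower), were chosen after the data were seen. A pseudocount of 0.5 gave 42 lower. No filter gave 0 calls (0 higher, 0 lower), a mean of at least 50 gave 90 (23 higher), and a mean of at least 10 over the 5 libraries 80 (33 higher). TMM gave 193 higher and 25 lower, scaling to reads outside mitochondrial and satellite-like genes 336 (198 lower), centring 272 (155 and 117), edgeR 412 (314 and 98), DESeq2 405 (224 and 181) and all c-Kit libraries but 1 664 (371 and 293). Leaving out a further library gave 10 to 724 calls, 9 to 253 higher and 1 to 471 lower. The cause of these shifts was not tested. At the depth of 97041 to 339986 reads outside mitochondrial and satellite-like genes, genes near 0 before MI carry few reads, and 128 tested genes had none in any pre-MI library.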

Other observations

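Red cell genes varied within both groups. Hbb-b1, a beta globin, was at 920.4, 7476 and 11.2 in vehicle replicates 1 to 3 and at 1611, 1112 and 6232 in pre-MI replicates 1 to 3, and Alas2, the first enzyme of heme synthesis in red cells, at 28, 164 and 1.87 and 36, 23.3 and 139.7. The groups overlapped in all 6 tested red cell genes with 6 libraries, and 1 was lower without overlap once vehicle replicate 3 was left out; neither fit called one. Globin copies are near-identical, so the split between them is uncertain.

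Immediate early genes followed the same order among the vehicle libraries. Fos was at 50.6, 235 and 5.61 in the vehicle libraries and 144, 156 and 211 before MI, Egr1 at 47.5, 278 and 20.6 and 198, 271 and 368, and Dusp1 at 63.9, 409 and 20.6 and 301, 278 and 454. Of 16 tested members 1 was lower without overlap, and the list's median log2 difference was -1.78 with 6 libraries and -0.62 without vehicle replicate 3. Small heat shock proteins of muscle stood apart from this list. Hspb7, expressed in heart muscle, was at 4.67, 43.8 and 5.61 against 68.1, 98.6 and 116 and Cryab, alpha B crystallin, at 4.67, 23.7 and 1.87 against 39.7, 43 and 47.7. Both were lower without overlap and neither passed the limma test.

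Igf2, a fetal growth factor from an imprinted gene, was at 20.2, 43.2 and 48.6 in the vehicle libraries and 126, 102 and 149 before MI, and E2f1, a transcription factor of the cell cycle, at 8.57, 16.4 and 50.5 and 0.946, 0 and 0. Without vehicle replicate 3 the first fell and the second rose (limma adjusted p 0.0486 and 0.0478). E2f1 passed the filter on the mean only through vehicle replicate 3. Of 23 cell cycle genes only E2f1 and Ccna2 reached the filter, and Ccna2 was at 7.79, 21.3 and 9.35 against 11.4, 12.5 and 11.4. Igf2 was named after its values were seen.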
